A study of Mus musculus with 12 samples.

Results

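The Myc, Max and Mxd network is a set of basic helix-loop-helix leucine zipper transcription factors. Its 10 genes Myc, Mycn, Max, Mxd1, Mxd3, Mxd4, Mxi1, Mnt, Mlx and Mga were followed here among the 27179 genes counted in mouse B cells. They were chosen by name and located by their Entrez Gene identifier. RNA-Seq was available for 12 libraries, 2 for each of 6 stages of a B-cell response to lipopolysaccharide (LPS), a bacterial cell wall component that drives B cells to divide and to form antibody-secreting plasmablasts.

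All cells came from the spleens of male C57BL/6 mice, and no gene was altered or deleted. The study's methods give the animals' age as 6 to 12 weeks and their background as C57BL/6 Pep3b. Naive B cells were untreated and were sorted as TCRβ- B220+ IgM+ IgD-high cells. The 3 h, 10 h and 33 h stages are cells cultured in 25 μg/ml LPS and sorted as CD69+ cells that kept the highest level of a division dye, so that they were activated but undivided. On day 4 of LPS, cultures seeded at a lower density gave the last pair of stages, sorted as CD22+ CD138- for expanded B cells and as CD22- CD138+ for plasmablasts. The cultured cells were isolated by negative selection rather than by the sort used for the naive stage, and the 2 libraries of a stage are described as biological duplicates.

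Max is the common partner of the network. Myc and Mycn bind DNA as heterodimers with Max at the E-box, a short palindromic sequence, and activate genes for ribosome production, metabolism and cell division. The Mxd proteins (Mxd1, Mxd3, Mxd4 and Mxi1) and Mnt also pair with Max at E-boxes but recruit the Sin3 corepressor and histone deacetylases, and so repress genes that Myc activates. Mga pairs with Max inside a repressive Polycomb complex, whereas Mlx is a relative of Max that pairs with Mxd1, Mxd4, Mnt and the nutrient-sensing Mondo proteins. In B cells Myc is known for rapid induction by mitogens and for setting how far the cells grow and divide.

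The E-box letters searched were CACGTG, which read the same on both strands, in promoter windows from 250 bases before to 50 bases after each RefSeq start in the GRCm38.p6 table. A promoter was in that table for 9 of the members, Myc being the exception, and 4 of these 9 (44.4%) held the letters, against 8.09% of the 27025 genes with a promoter in the table and 7.15% of the 32851 promoters. The windows of Mxd4, Mnt, Mlx and Max held the letters once each, with first bases at -219, -123, -40 and -3 from the start. The 3 promoters of Mxi1 and those of Mxd1, Mxd3, Mycn and Mga did not hold them. The matches are printed 5′ to 3′ on the gene's strand because Max dimers bind this sequence, with the E-box letters in capitals. A match is a description of sequence, and no binding was measured here.
Mxd4, chr5:34187894-34187960, minus strand: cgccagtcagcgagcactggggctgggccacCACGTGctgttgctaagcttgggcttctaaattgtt
Mnt, chr11:74830741-74830836, plus strand: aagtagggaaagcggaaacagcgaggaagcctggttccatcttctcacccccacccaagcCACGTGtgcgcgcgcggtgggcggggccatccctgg
Mlx, chr11:101087190-101087285, plus strand: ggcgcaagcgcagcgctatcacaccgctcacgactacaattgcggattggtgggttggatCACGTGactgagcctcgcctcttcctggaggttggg
Max, chr12:76962246-76962311, minus strand: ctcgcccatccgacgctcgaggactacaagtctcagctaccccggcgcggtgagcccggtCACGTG

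Total counts per library ran from 23026619 to 60585587. Of the 10 members, 9 passed the filter on low counts and were tested among 12750 genes. Mycn did not, with 8 counts over all 12 libraries, 8 libraries at 0 and none above 3, where 3 counts correspond to 0.0199 to 0.0644 RPKM. The B-cell identity of the libraries was checked against fixed markers. The summed level of 8 B-cell genes was 11287 to 11635 CPM (counts scaled to the library total) in naive cells and 2706 to 2742 CPM in plasmablasts. Within that list Blnk went the other way, from 294 and 307 CPM in naive cells to 462 and 474 CPM in plasmablasts. The 6 plasmablast genes summed to 362 to 389 CPM in naive cells and 16401 to 16913 CPM in plasmablasts. Their sum was 2092 to 2684 CPM at 3 h, where Irf4 was the highest of them, and 2191 to 2536 CPM in expanded cells. Sdc1, of the same list, was at 23.1 and 20.4 CPM in naive cells and 3.70 and 4.95 CPM in expanded cells. Markers of myeloid, erythroid, platelet and NK cells were highest in sum in the naive libraries, with 12 myeloid genes summing to 128 to 283 CPM there and 2.48 to 40.0 CPM elsewhere, and 9 erythroid and platelet genes to 148 to 199 CPM there and 0.565 to 2.43 CPM elsewhere. Each comparison with naive cells therefore carries this difference in markers, and its part in the changes of the members was not tested. The 12 T-cell genes summed to 64.2 to 69.1 CPM in naive cells, 23.4 to 43.1 CPM in the stages from 3 h to expanded and 80.0 to 85.6 CPM in plasmablasts. Of that list Lck led in naive cells and Cd28 in plasmablasts (64.3 and 71.6 CPM, against 0.339 and 0.535 CPM in naive cells), Trac was at 6.57 and 4.88 CPM in plasmablasts, and Cd3e was at 0.235 CPM or less in every library. The 6 NK-cell genes summed to 17.2 to 19.2 CPM in naive cells and 0.981 to 5.14 CPM elsewhere.

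Levels are given as RPKM, read counts divided by exon length and by TMM-scaled library size, which allows different genes to be compared per length. Differential expression (DE) was called with edgeR's glmTreat, which asks whether a change exceeds 1.5-fold, at an adjusted p below 0.05 over all 12750 genes. Changes of any size were judged with edgeR's quasi-likelihood (QL) F-test over the same genes.

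Myc (Entrez 17869, chr15:61985341-61990361, mm10) peaked at 3 h and spanned a 25.7-fold range of stage means. Its level was 31.1 and 28.9 RPKM in the 2 naive libraries, 835 and 706 RPKM at 3 h, 138 and 139 RPKM at 10 h and 74.2 and 78.5 RPKM at 33 h. The level fell further to 37.4 and 39.8 RPKM in expanded cells, and the plasmablast libraries were at 27.0 and 35 RPKM. Both 3 h libraries stood far above all others, and the plasmablast libraries lay on either side of the naive ones. Among the 12750 tested genes Myc ranked 2553rd by mean RPKM in naive cells, 73rd at 3 h and 2744th in plasmablasts.

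The rise of Myc from naive cells to 3 h was 25.7-fold, a log2 fold change of 4.68 ± 0.13 (SE, n = 2 per stage; glmTreat adjusted p = 1.1e-10), and 125 of the tested genes rose more. In sorted bulk RNA, fewer cells expressing a gene and less RNA per cell cannot be told apart, here or in any later result. From 3 to 10 h the change was -2.47 ± 0.12 on the log2 scale (glmTreat adjusted p = 3.6e-08). A further fall from 10 to 33 h was small, at -0.86 ± 0.12 (glmTreat adjusted p = 0.029), and it no longer passed the 1.5-fold test when any of the 4 libraries compared was left out. The adjusted p was 0.079 without 10 h replicate 1, 0.099 without 10 h replicate 2, 0.12 without 33 h replicate 1 and 0.053 without 33 h replicate 2, and DESeq2's Wald test beyond 1.5-fold gave 0.41.

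The last DE step of Myc was the fall from 33 h to expanded cells, of -0.98 ± 0.12 on the log2 scale (glmTreat adjusted p = 0.0066, and 0.056 without expanded replicate 1 or 0.055 with DESeq2's Wald test). Between expanded cells and plasmablasts Myc fell by less than the 1.5-fold threshold (log2 fold change -0.32 ± 0.12, F-test adjusted p = 0.035). The plasmablast and naive levels were not distinguished, with a log2 difference of 0.05 and a 95% interval of -0.20 to 0.30. The sign of that difference turned to -0.15 without plasmablast replicate 2 and to -0.24 with scaling by library size alone.

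Max (Entrez 17187, chr12:76937269-76962323), the partner through which Myc binds DNA, moved over a much narrower range. It was at 53.7 and 54.8 RPKM in naive cells, 79.8 and 80.6 RPKM at 3 h, 52.4 and 48.9 RPKM at 10 h and 62.6 and 63.4 RPKM at 33 h. Expanded cells had 45.0 and 43.4 RPKM and plasmablasts 23.1 and 23.9 RPKM, the lowest of all stages, with no overlap with any other stage. The highest stage mean of Max was 3.41 times the lowest.

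Max was DE at 1 of the 5 consecutive transitions, falling by 0.91 ± 0.08 on the log2 scale between expanded cells and plasmablasts (glmTreat adjusted p = 0.00089). Its rise by 3 h (log2 fold change 0.56 ± 0.08) and its fall by 10 h (-0.66 ± 0.08) passed the F-test, with adjusted p = 2.4e-05 and 9e-06, but not the test beyond 1.5-fold. With DESeq2's size factors in place of TMM the fall by 10 h was -0.74 and did pass (glmTreat adjusted p = 0.033). Plasmablasts had 2.30-fold less Max than naive cells (log2 fold change -1.20 ± 0.08, glmTreat adjusted p = 1.4e-06).

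**Figure D1:**
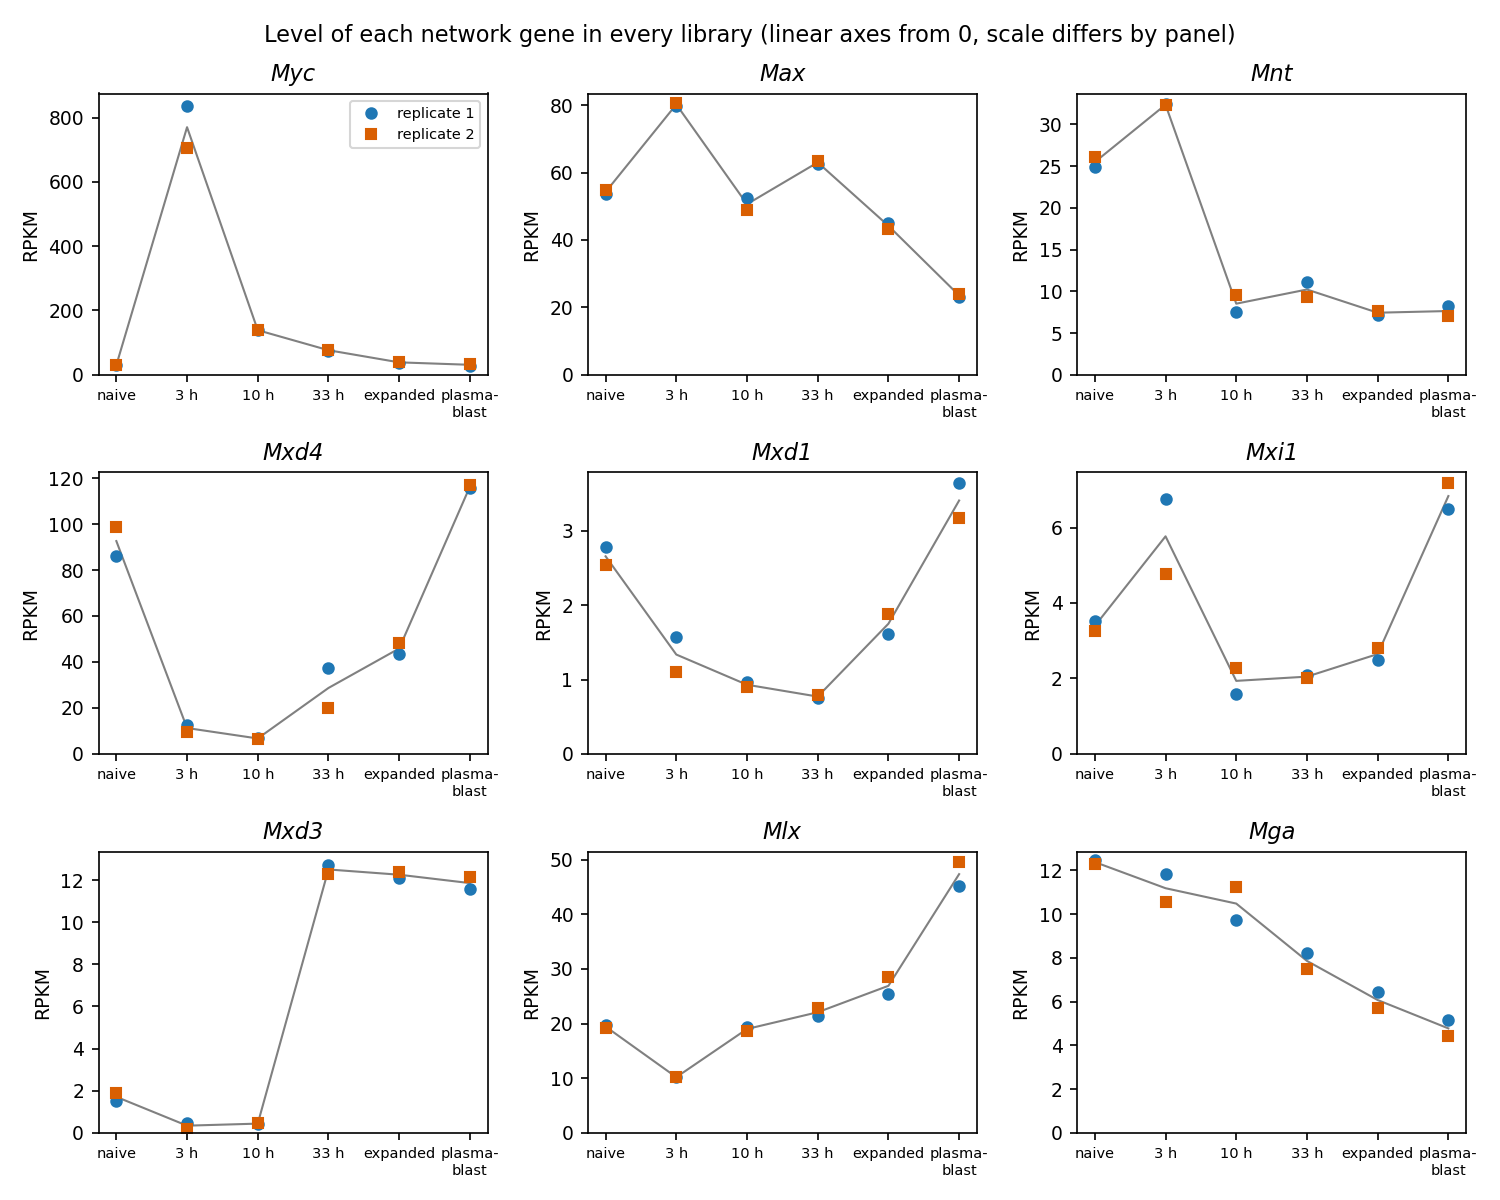
Level in RPKM of the 9 tested members in each of the 12 libraries, on linear axes that start at 0 and differ between panels. Circles and squares are replicates 1 and 2, and the line joins the stage means. Myc peaks at 3 h at 706 to 835 RPKM, Mxd4 is lowest at 3 and 10 h, and Mxd3 is near 0 until 33 h.

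Mxd4 (Entrez 17122, chr5:34176580-34187710) was the most abundant Mxd gene per length at every stage. It was low where Myc was highest, and both fell from 3 to 10 h. It was at 86.3 and 98.9 RPKM in naive cells, 12.7 and 9.69 RPKM at 3 h and 6.70 and 6.62 RPKM at 10 h. At 33 h the libraries differed, with 37.2 RPKM in replicate 1 and 20.1 RPKM in replicate 2. Expanded cells had 43.4 and 48.3 RPKM and plasmablasts 116 and 117 RPKM. The 3 h and 10 h libraries were below all others, and the plasmablast libraries were above all others. Mxd4 ranked 759th of the tested genes by mean RPKM in naive cells, 6705th at 10 h and 775th in plasmablasts.

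The fall of Mxd4 by 3 h was 8.34-fold (log2 fold change -3.06 ± 0.24, glmTreat adjusted p = 1.2e-06), and 664 tested genes fell more. The following step to 10 h was -0.74 ± 0.25 (F-test adjusted p = 0.022) and was not DE. Mxd4 then rose by 2.11 ± 0.24 from 10 to 33 h (glmTreat adjusted p = 0.00017), with 1.6 without 33 h replicate 1 and 2.49 without 33 h replicate 2. The log2 ratio of the 33 h replicates, -0.88, compares with an SD of 0.38 for this ratio over all tested genes. That SD was widest at 3 h, at 0.53, and was 0.30 to 0.39 at the other stages.

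The spread at 33 h also sets the next step of Mxd4. The rise from 33 h to expanded cells was 0.67 ± 0.22 on the log2 scale and not DE (glmTreat adjusted p = 0.65), but it was 1.18 and DE without 33 h replicate 1 (glmTreat adjusted p = 0.0061) and 0.30 without 33 h replicate 2. Between expanded cells and plasmablasts Mxd4 rose by 1.34 ± 0.22 (glmTreat adjusted p = 0.0035). Plasmablasts were not distinguished from naive cells, with a log2 difference of 0.33 and a 95% interval of -0.14 to 0.80.

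Mxd1 (Entrez 17119, chr6:86647044-86669234), known for its induction during terminal differentiation, was low throughout. It was at 2.78 and 2.54 RPKM in naive cells, 1.57 and 1.11 RPKM at 3 h, 0.963 and 0.896 RPKM at 10 h and 0.751 and 0.789 RPKM at 33 h. It then stood at 1.62 and 1.89 RPKM in expanded cells and 3.64 and 3.18 RPKM in plasmablasts, so that the highest libraries were those of the first and last stages. Myeloid cells also express Mxd1, and the myeloid gene Lyz2 was at 131 and 54.9 CPM in the naive libraries and at most 0.0527 CPM in all others. Other genes of that list differed, with Itgam at 8.74 and 5.08 CPM in naive cells and 24.3 and 21.8 CPM in expanded cells. The sum of the 12 myeloid genes was 21.6 to 29.8 CPM at 33 h, 37.4 to 40.0 CPM in expanded cells and 3.66 to 4.45 CPM in plasmablasts, and the part of such RNA in the levels of Mxd1 was not tested.

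Mxd1 fell by 1.01 ± 0.18 on the log2 scale by 3 h (glmTreat adjusted p = 0.0097), which became -0.79 and lost its call without 3 h replicate 2 (glmTreat adjusted p = 0.099). DESeq2's Wald test beyond 1.5-fold gave this fall an adjusted p of 0.081. It rose by 1.19 ± 0.18 from 33 h to expanded cells (glmTreat adjusted p = 0.0073), with adjusted p = 0.060 without 33 h replicate 1 and 0.074 without expanded replicate 2. The rise from expanded cells to plasmablasts was 0.96 ± 0.17 (glmTreat adjusted p = 0.023). That last call was lost without expanded replicate 1 (0.85, adjusted p = 0.15) or plasmablast replicate 1 (0.89, adjusted p = 0.11), and also with scaling by library size alone (0.62, adjusted p = 0.38) or DESeq2's Wald test (0.99, adjusted p = 0.16).

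Mxi1 (Entrez 17859, chr19:53310128-53373293), also called Mxd2, had a pattern of its own with peaks at 3 h and in plasmablasts. Its levels were 3.53 and 3.25 RPKM in naive cells, 6.77 and 4.77 RPKM at 3 h, 1.59 and 2.27 RPKM at 10 h and 2.09 and 2.01 RPKM at 33 h. Expanded cells had 2.49 and 2.80 RPKM and plasmablasts 6.49 and 7.18 RPKM. The 3 h and plasmablast libraries overlapped each other and lay above all the rest. At 3 h Mxi1 was therefore the only Mxd gene with a mean above the naive one, as the other Mxd genes were lower in both 3 h libraries than in both naive libraries.

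The rise of Mxi1 by 3 h, 0.76 ± 0.18 on the log2 scale, passed the F-test (adjusted p = 0.0019) but not the test beyond 1.5-fold (glmTreat adjusted p = 0.12). Without 3 h replicate 2 it was 0.97 and DE (glmTreat adjusted p = 0.013). Mxi1 fell by 1.57 ± 0.18 from 3 to 10 h (glmTreat adjusted p = 0.00012) and rose by 1.37 ± 0.18 from expanded cells to plasmablasts (glmTreat adjusted p = 0.00056). The plasmablast level was 2.01-fold that of naive cells (log2 fold change 1.01 ± 0.18, glmTreat adjusted p = 0.009), a call that was lost with scaling by library size alone (0.72, adjusted p = 0.14) and with DESeq2's Wald test (adjusted p = 0.068).

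Mxd3 (Entrez 17121, chr13:55325170-55329900), the Mxd protein known from cells in S phase, rose between 10 and 33 h and stayed at its new level. It was at 1.5 and 1.91 RPKM in naive cells, 0.472 and 0.202 RPKM at 3 h and 0.400 and 0.468 RPKM at 10 h, where the 3 h values rest on 11 and 8 counts. From 33 h it was at 12.7 and 12.3 RPKM, then 12.1 and 12.4 RPKM in expanded cells and 11.6 and 12.1 RPKM in plasmablasts. The 6 libraries from 33 h on were all above the 6 earlier libraries, with no values in between.

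The rise of Mxd3 from 10 to 33 h was 28.8-fold (log2 fold change 4.85 ± 0.22, glmTreat adjusted p = 6.2e-09), and 46 tested genes rose more. Before that it fell by 2.45 ± 0.30 from naive cells to 3 h (glmTreat adjusted p = 4.6e-05), with -3.04 without 3 h replicate 1 and -1.86 without 3 h replicate 2. The later steps were small, -0.03 with a 95% interval of -0.37 to 0.31 from 33 h to expanded cells, and -0.05 with an interval of -0.40 to 0.30 from there to plasmablasts. Plasmablasts had 7.0-fold more Mxd3 than naive cells (log2 fold change 2.81 ± 0.19, glmTreat adjusted p = 7.5e-08). An exon of Mxd3 shares 105 bases with Prelid1 on the opposite strand, and the strand setting of the counting is not given in the sources used here. Prelid1 had 2709 to 7685 counts before 33 h and 9389 to 14982 counts from 33 h on, and its part in the Mxd3 counts was not tested.

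Mnt (Entrez 17428, chr11:74830806-74845725), the broadly expressed antagonist of Myc, was high early and low late. Its levels were 24.8 and 26.1 RPKM in naive cells and 32.4 and 32.3 RPKM at 3 h, then 7.47 and 9.56 RPKM at 10 h. The later stages had 11.2 and 9.28 RPKM at 33 h, 7.18 and 7.70 RPKM in expanded cells and 8.24 and 7.04 RPKM in plasmablasts. The 4 libraries of the first 2 stages were all above the 8 later libraries. The step from 3 to 10 h was the DE one among the consecutive transitions, a 3.80-fold fall (log2 fold change -1.93 ± 0.13, glmTreat adjusted p = 8.7e-07), and 634 tested genes fell more. Plasmablasts had 3.34-fold less Mnt than naive cells (log2 fold change -1.74 ± 0.13, glmTreat adjusted p = 7.5e-07).

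Mga (Entrez 29808, chr2:119872503-119970129), which joins Max to a Polycomb complex, declined slowly with no DE step. It was at 12.5 and 12.3 RPKM in naive cells, 11.8 and 10.5 RPKM at 3 h, 9.72 and 11.2 RPKM at 10 h and 8.22 and 7.49 RPKM at 33 h. Expanded cells had 6.44 and 5.70 RPKM and plasmablasts 5.13 and 4.41 RPKM. The mean was lower at each stage than at the one before, and from 10 h on each step passed the F-test (adjusted p = 0.0074, 0.016 and 0.016) without passing 1.5-fold. The steps added up to a DE change of -1.38 ± 0.11 on the log2 scale between naive cells and plasmablasts (glmTreat adjusted p = 3.5e-06).

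Mlx (Entrez 21428, chr11:101086707-101092207), which stands in for Max in the Mondo branch of the network, was lowest at 3 h, where Max was highest, and highest in plasmablasts, where Max was lowest. It was at 19.8 and 19.1 RPKM in naive cells, 10.2 and 10.1 RPKM at 3 h, 19.4 and 18.6 RPKM at 10 h and 21.3 and 22.8 RPKM at 33 h. It reached 25.3 and 28.5 RPKM in expanded cells and 45.2 and 49.5 RPKM in plasmablasts. Both 3 h libraries were below all others and both plasmablast libraries above all others. From 10 to 33 h the means of Max and Mlx were both higher at the later stage, with log2 fold changes of 0.32 (F-test adjusted p = 0.0051) and 0.21 (F-test adjusted p = 0.084).

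Mlx fell by 0.93 ± 0.10 on the log2 scale by 3 h (glmTreat adjusted p = 0.0014) and rose by 0.90 ± 0.10 by 10 h (glmTreat adjusted p = 0.004), where DESeq2's Wald test against the same 1.5-fold threshold did not call it (0.83, adjusted p = 0.13). The rise from expanded cells to plasmablasts was 0.82 ± 0.10 (glmTreat adjusted p = 0.017), and that call was lost without expanded replicate 1 (0.73, adjusted p = 0.16), without plasmablast replicate 2 (0.77, adjusted p = 0.095), with scaling by library size alone (0.48, adjusted p = 0.95) and with DESeq2's Wald test (0.85, adjusted p = 0.062). Plasmablasts had 2.44-fold more Mlx than naive cells (glmTreat adjusted p = 2.9e-06). Mlx shares 385 exon bases with Psmc3ip on the opposite strand, which had 62 to 130 counts in naive and 3 h libraries and 484 to 1814 counts from 10 h on, with 362 to 2774 counts for Mlx itself. The part of shared reads was not tested. Mxd4 and Mxi1 share 514 and 194 exon bases with opposite-strand genes that were not among those counted.

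Counted together, 5 of the 9 tested members were DE between naive cells and 3 h, with Myc up and Mxd1, Mxd3, Mxd4 and Mlx down. Over all tested genes 45.3% were DE at this transition, 21.0% up and 24.3% down, and the F-test called 8 of the members and 71.0% of all genes. From 3 to 10 h 4 members were DE, with Mlx up and Myc, Mxi1 and Mnt down, against 30.8% of all genes (17.4% up and 13.4% down). The F-test called 7 members there and 62.3% of all genes. From 10 to 33 h 3 were DE, with Mxd3 and Mxd4 up and Myc down, against 14.5% of all genes (10.1% up and 4.45% down), and the F-test called 5 members and 45.5% of all genes. The members' counts stand as a description beside these backgrounds.

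Between 33 h and expanded cells 2 members were DE, Mxd1 up and Myc down, against 10.6% of all genes (6.94% up and 3.66% down), while the F-test called 7 members and 39.6% of all genes. The DE count was 1 without expanded replicate 1 and 1 without expanded replicate 2. Between expanded cells and plasmablasts 5 were DE, with Mxd1, Mxd4, Mxi1 and Mlx up and Max down, against 26.1% of all genes (13.9% up and 12.2% down), and the DE count was 3 without expanded replicate 1. The DE count was also 3 with scaling by library size alone and with DESeq2's Wald test. Shares of all genes are not given here for DESeq2's Wald test or with single libraries left out. The lower counts under those settings are therefore not read as a trait of the members. Under library size alone 1181 of all tested genes rose and 2953 fell, in place of 1776 and 1553. The F-test called 7 members at this step and 56.9% of all genes. Naive cells and plasmablasts differed in 6 members, Mxd3, Mxi1 and Mlx up and Max, Mnt and Mga down, against 50.0% of all genes (26.6% up and 23.4% down), and the F-test called the same number of members and 74.1% of all genes. Neighbouring transitions share the libraries of the stage between them, so that their calls are not independent.

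The median absolute log2 fold change of the 9 members was 0.93, 0.74, 0.32, 0.46 and 0.82 at the 5 consecutive transitions, against 0.84, 0.64, 0.39, 0.34 and 0.52 over all tested genes. These medians are a description, and the gaps between them were not tested. Scaling by library size alone moved the median of all tested genes to -0.24 from naive cells to 3 h, 0.35 from 3 to 10 h and -0.38 from expanded cells to plasmablasts, against -0.03, 0.02 and -0.05 with TMM, so that all changes are relative to the typical gene. The split of all DE genes under that scaling was 2091 up and 3716 down at 3 h in place of 2674 and 3100, 3432 up and 1004 down by 10 h in place of 2221 and 1711, and 1181 up and 2953 down at the plasmablast step in place of 1776 and 1553.

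**Figure D2:**
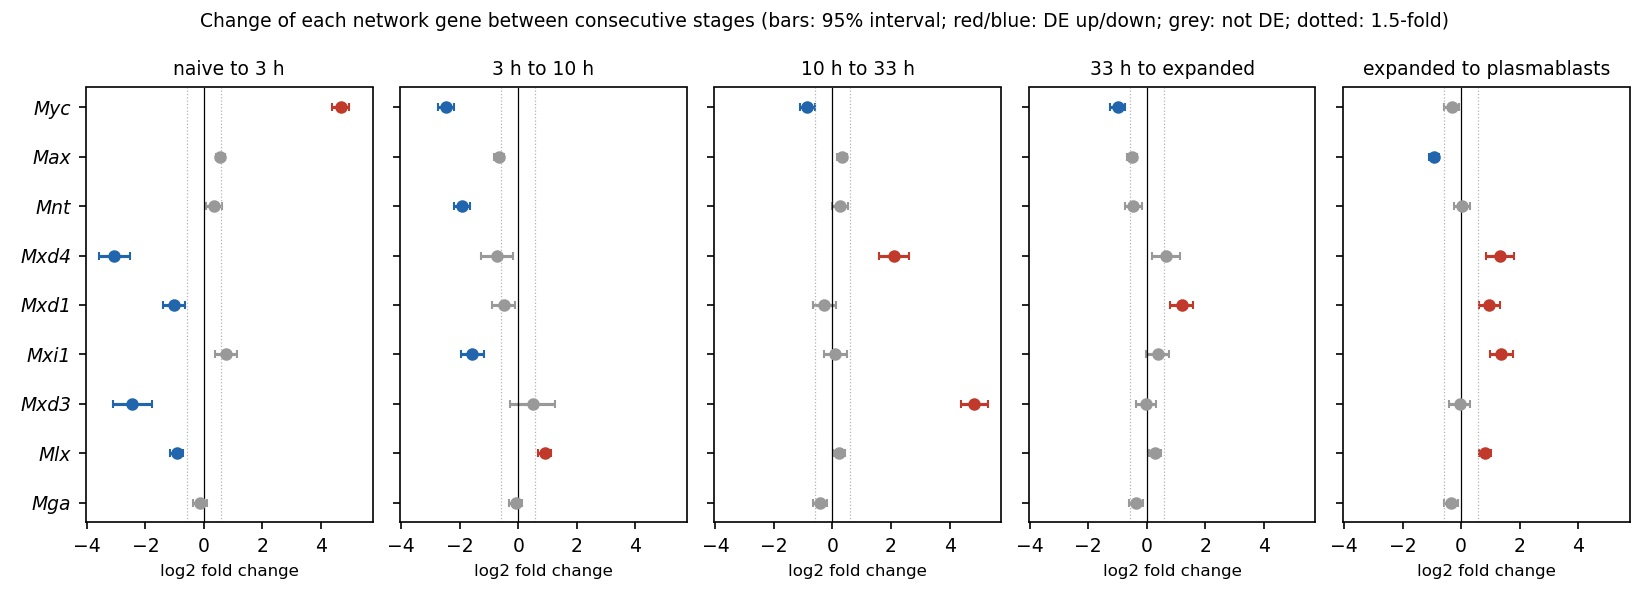
Log2 fold change of the 9 tested members at the 5 consecutive transitions, with 95% intervals from the quasi-likelihood fit. Red and blue points were DE up and down, grey points were not DE, and dotted lines mark 1.5-fold. Myc (4.68) and Mxd3 (4.85) show the largest rises, at 3 h and 33 h, and the plasmablast step has 4 red points.

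The stages were also ordered by each member's mean, and neighbours in that order were compared by the F-test. Of 45 such neighbour pairs 25 (55.6%) differed. With every tested gene ordered by its own stage means in the same way, 34.9% of 63750 neighbour pairs did. For Myc the order was 3 h, 10 h, 33 h, expanded, plasmablast and naive, and the plasmablast and naive stages were the pair not distinguished. For Max the order was 3 h, 33 h, naive, 10 h, expanded and plasmablast, with naive and 10 h not distinguished. For Mxd4 it was plasmablast, naive, expanded, 33 h, 3 h and 10 h, with plasmablast and naive not distinguished.

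Mxd3 formed 3 levels, with 33 h, expanded and plasmablast not distinguished at the top, naive alone, and then 10 h and 3 h not distinguished. In Mnt 3 h was above naive (adjusted p = 0.026) and naive above 33 h (adjusted p = 9.9e-07), with the other 3 neighbour pairs not distinguished. In Mlx plasmablast, expanded and 33 h stood in that order, naive and 10 h could not be told from the stage above each, and 3 h was lowest. In Mxd1 naive was above expanded and 3 h above 10 h, the other 3 pairs being not distinguished, and in Mxi1 3 h was above naive as the sole pair that differed. In Mga naive, 3 h and 10 h were not distinguished as neighbours and each later stage was lower than the one before.

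Because RPKM is set per length, the levels of the genes for Max partners can be added up and their shares compared. The sum over Myc, Mycn, Mxd1, Mxd3, Mxd4, Mxi1, Mnt and Mga counts transcripts, and protein was not measured. In the naive libraries Myc made up 19.1% and 16.6% of this sum. Its share was 92.7% and 92.3% in the 3 h libraries, 83.7% and 81.8% after 10 h, and 50.7% and 60.2% after 33 h. Expanded cells had 33.8% and 33.6% of the sum in Myc, and plasmablasts had 15.2% and 18.8%. The share was therefore above that of the Mxd family in every library from 3 h to 33 h, and below it in every naive, expanded and plasmablast library.

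The Mxd family (Mxd1, Mxd3, Mxd4 and Mxi1) held 57.9% and 61.3% of the sum in naive cells, but only 2.39% and 2.06% of it after 3 h of LPS. The share was 5.85% and 6.02% in the 10 h libraries, and 36.0% and 27.0% in the 33 h libraries. In expanded cells it was 53.9% and 55.1%, and in plasmablasts, the highest stage, it was 77.3% and 75.0%. The ratio of Myc to the summed Mxd family was 0.330 and 0.271 for naive cells, against 38.8 and 44.8 for the 3 h libraries and 0.197 and 0.251 for plasmablasts. By plain counts, with no correction for length, the mean share of Myc was 14.3% for naive cells, 83.8% for the 3 h stage, 61.5% for 10 h and 19.4% for plasmablasts. Plasmablasts were thus above naive cells on plain counts but not on RPKM, where the mean was 17.0% in plasmablasts and 17.9% in naive cells. On plain counts Myc also exceeded the summed Mxd family in expanded replicate 1, with 3586 counts against 2045 for Mxd4, 628 for Mxd3, 558 for Mxi1 and 301 for Mxd1.

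Within the Mxd family Mxd4 held the largest share of the summed RPKM in every library, from 57.2% in 33 h replicate 2 to 92.8% in naive replicate 2. At 3 and 10 h that order rests on the division by length, since Mxi1 has an exon length of 5619 bases and had more reads than Mxd4 in all 4 libraries. The plain counts at 3 h were 682 and 816 for Mxi1 against 269 and 348 for Mxd4, and at 10 h they were 431 and 483 against 380 and 295. The second place changed with the stage. Mxi1 held 31.4% and 30.2% of the family after 3 h of LPS and 16.5% and 22.2% of it after 10 h. Mxd3 held 24.1% and 34.9% of the family in the 33 h libraries, then 20.3% and 19.0% of it in expanded cells. In plasmablasts Mxd4 was back at 84.2% and 83.9%, with Mxd3 at 8.43% and 8.70%.

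The level of Max relative to the sum of its partners' genes was 0.330 and 0.315 in the naive libraries, against 0.0887 and 0.105 in those of 3 h. Later it was 0.317 and 0.287 (10 h), 0.428 and 0.486 (33 h) and 0.407 and 0.366 (expanded). Plasmablasts were again low, with ratios of 0.130 and 0.129. The ratio was thus lowest at 3 h and in plasmablasts. The sum was 900 and 764 RPKM at 3 h, 178 and 186 RPKM in plasmablasts and 162 and 174 RPKM in naive cells. Max was at 79.8 and 80.6 RPKM at 3 h, 23.1 and 23.9 RPKM in plasmablasts and 53.7 and 54.8 RPKM in naive cells. Myc was the largest part of the sum at 3 h, and Mxd4 was in plasmablasts. Mxd4 was also the largest part of the sum in naive cells, where the ratio was not low.

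**Figure D3:**
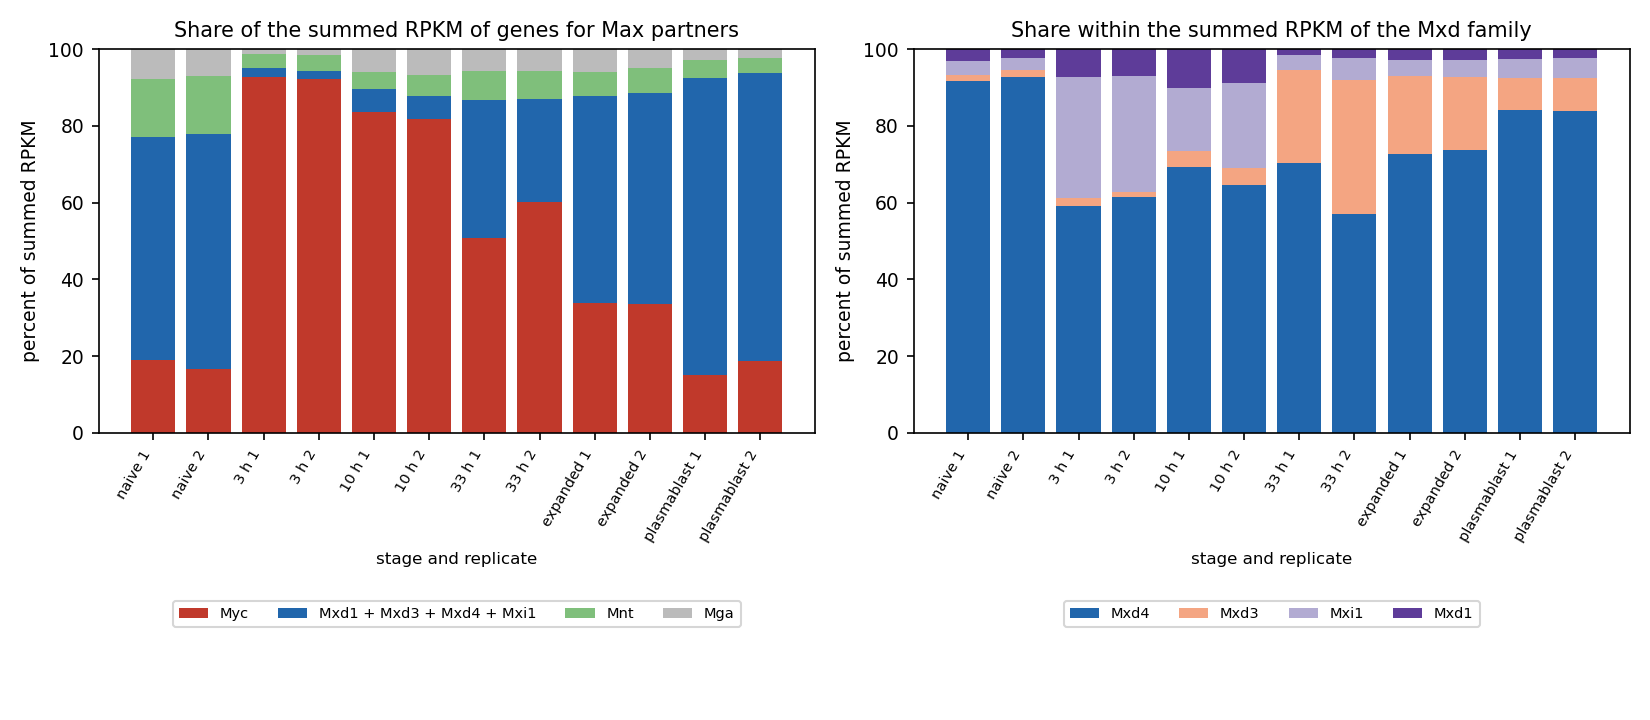
Left, percent of the summed RPKM of the genes for Max partners taken by Myc, the Mxd family, Mnt and Mga in each of the 12 libraries, with Mycn too low to be visible. Right, percent of the summed RPKM of the Mxd family taken by each Mxd gene. Myc takes over 80% at 3 and 10 h, and Mxd4 is the largest Mxd component in every library on this scale.

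Other basic helix-loop-helix genes tied to the network by E-box binding or by dimer partners were examined as a fixed list, of which 10 were tested. By 3 h 2 rose and 4 fell, 20% and 40% of the list, against 21.0% and 24.3% of all tested genes. Bhlhe40, an E-box-binding repressor of activated lymphocytes, went from 20.3 RPKM in naive cells to 233 RPKM at 3 h (log2 fold change 3.52 ± 0.16, glmTreat adjusted p = 2.5e-09) and back to 43.2 RPKM at 10 h. Mlxip, the Mondo partner of Mlx, fell from 32.3 RPKM at 3 h to 13.1 RPKM at 10 h (log2 fold change -1.30 ± 0.13, glmTreat adjusted p = 7.1e-05), the step at which Mlx rose. Mycl, the third Myc paralog, was lowly expressed, with a mean of 0.772 RPKM in expanded cells and 0.191 RPKM in naive cells.

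Textbook targets activated by Myc were followed as a list of genes for ribosome assembly, nucleotide synthesis, glycolysis and cell division. Of 58 tested, 36 (62.1%) rose and 3 (5.17%) fell from naive cells to 3 h, against 21.0% and 24.3% of all tested genes, with a median log2 fold change of 1.44 against -0.03. The list shares ribosome genes with results of these data known beforehand, so its early rise is not independent evidence. Hk2, a hexokinase, went from 1.27 to 18.2 RPKM (log2 fold change 3.83 ± 0.16, glmTreat adjusted p = 9.3e-10), the amino acid transporter Slc7a5 from 13.5 to 178 RPKM (3.73 ± 0.17, adjusted p = 6.4e-09) and cyclin Ccnd2 from 24.7 to 297 RPKM (3.59 ± 0.12, adjusted p = 2.8e-10). The glycolytic enzyme Gpi1 was one of the 3 that fell, from 230 to 118 RPKM (-0.97 ± 0.07, adjusted p = 6.7e-05).

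While Myc fell from 3 to 10 h, 15 of the 58 activated targets rose (25.9%) and 6 fell (10.3%), against 17.4% and 13.4% of all genes, with a median of -0.07 against 0.02. Cad, an enzyme of pyrimidine synthesis, went from 32.1 to 121 RPKM (log2 fold change 1.91 ± 0.16, glmTreat adjusted p = 6.2e-06), and Ccnd2 fell from 297 to 128 RPKM (-1.22 ± 0.11, adjusted p = 6.2e-05). From 10 to 33 h the 5 DE targets (8.62%) all rose, against 10.1% of all genes. Those with the largest rises were the S-phase enzymes Tk1 (3.84 ± 0.18) and Tyms (3.43 ± 0.15), with glmTreat adjusted p of 8.6e-09 and 6.7e-09. From 33 h to expanded cells the 2 DE targets (3.45%) fell, against 3.66% of all genes, and the median was -0.35 against -0.02.

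Between expanded cells and plasmablasts 23 of the 58 (39.7%) fell and 2 (3.45%) rose, against 12.2% and 13.9% of all tested genes, with a median of -0.68 against -0.05. Hspd1, a mitochondrial chaperonin, fell from 218 to 65.3 RPKM (log2 fold change -1.74 ± 0.11, glmTreat adjusted p = 6.9e-07), and the nucleolar protein gene Npm1 from 400 to 127 RPKM (-1.65 ± 0.09, adjusted p = 2e-07). Slc3a2, the partner chain of Slc7a5, rose from 79.4 to 524 RPKM (2.72 ± 0.13, adjusted p = 1.7e-08). Although Myc itself was not distinguished between plasmablasts and naive cells, 26 of the 58 targets (44.8%) were DE higher there than in naive cells, against 26.6% of all genes. A single target (1.72%, against 23.4% of all genes) was lower, Tfam, a mitochondrial transcription factor.

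Textbook targets repressed by Myc did not move as a block. Of 18 tested, 9 (50%) fell and 4 (22.2%) rose by 3 h, against 24.3% and 21.0% of all tested genes, with a median of -1.21 against -0.03. Txnip, which restrains glucose uptake, fell from 199 to 21.2 RPKM (log2 fold change -3.23 ± 0.14, glmTreat adjusted p = 2e-09) and the quiescence factor Klf2 from 498 to 81.1 RPKM (-2.62 ± 0.23, adjusted p = 5e-06). In the other direction the stress gene Gadd45b rose from 7.76 to 216 RPKM (4.79 ± 0.18, adjusted p = 6.5e-10) and Id2 from 2.95 to 32.5 RPKM (3.46 ± 0.19, adjusted p = 1.2e-08). Cdkn2b, at low levels, rose from 0.0106 to 0.660 RPKM (5.60 ± 1.20, glmTreat adjusted p = 0.0025). The cell-cycle inhibitor Cdkn1a rose from 0.593 RPKM in naive cells to 3.67 RPKM at 3 h (2.63 ± 0.36, glmTreat adjusted p = 0.00017). It then rose to 26.6 RPKM at 10 h, fell to 4.85 RPKM at 33 h and rose to 23.7 RPKM in expanded cells, each a DE step.

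From 3 to 10 h 7 of the 18 fell (38.9%) and 3 rose (16.7%), against 13.4% and 17.4% of all genes. From 10 to 33 h 3 fell (16.7%) and 2 rose (11.1%), against 4.45% and 10.1%. From 33 h to expanded cells 5 of the 18 rose (27.8%) and 1 fell (5.56%), against 6.94% and 3.66% of all genes. From there to plasmablasts 6 rose (33.3%) and 3 fell (16.7%), against 13.9% and 12.2%. Some of these rises were at very low levels. Pdgfrb went from 0.0032 to 0.073 RPKM from 33 h to expanded cells. Cebpa went from 0.0047 to 0.064 RPKM and Klf4 from 0.156 to 0.468 RPKM at the plasmablast step. At the plasmablast step Foxo3 went from 13.3 to 33.1 RPKM (log2 fold change 1.32 ± 0.14, glmTreat adjusted p = 0.00011). Klf2 went from 58.3 to 1.12 RPKM at the same step (-5.70 ± 0.31, adjusted p = 1.5e-07).

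**Figure D4:**
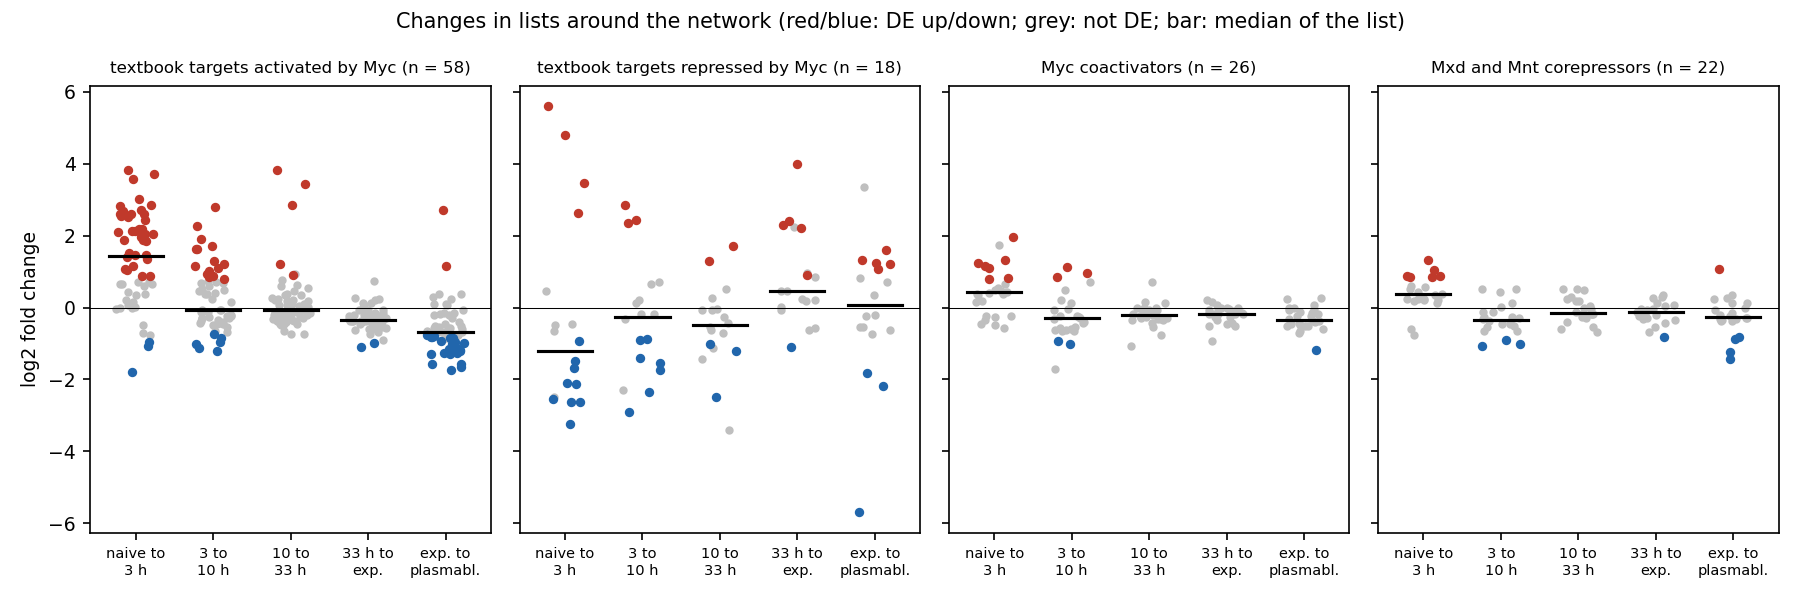
Log2 fold changes at the 5 consecutive transitions for the tested genes of 4 fixed lists, with red and blue points DE up and down, grey points not DE and black bars for medians. Activated targets have a median of 1.44 at 3 h and -0.68 at the plasmablast step, and the medians of the coactivator and corepressor lists lie between -0.35 and 0.42.

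Genes for the cofactors of the network were followed in further fixed lists. Of 26 Myc coactivators 7 were DE by 3 h, all of them rises (26.9%, against 45.3% of all tested genes DE and 21.0% up), among them Wdr5, a histone methyltransferase subunit that binds Myc, from 18.2 to 71.1 RPKM (log2 fold change 1.97 ± 0.09, glmTreat adjusted p = 1.1e-08) and Ruvbl1, an ATPase of the TIP60 complex, from 12.7 to 31.7 RPKM (1.33 ± 0.11, adjusted p = 5.1e-06). From 3 to 10 h 3 rose (11.5%) and 2 fell (7.69%), against 17.4% and 13.4% of all genes, with Kat2a, a histone acetyltransferase, rising from 35.3 to 68.5 RPKM (0.95 ± 0.17, adjusted p = 0.021). At the plasmablast step 1 was DE (3.85%, against 26.1% of all genes), Ruvbl2 (-1.18 ± 0.12, adjusted p = 0.00016). In plasmablasts 7 of the 26 (26.9%) were lower than in naive cells and 2 (7.69%) were higher, against 23.4% and 26.6% of all genes.

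Of 22 corepressor genes of the Mxd and Mnt proteins 6 were DE by 3 h, all of them rises (27.3%, against 45.3% of all tested genes DE and 21.0% up). From 3 to 10 h 3 were DE, all of them falls, and their share of 13.6% was close to the 13.4% of all genes that fell. Sin3a, the scaffold that the Mxd proteins bind, fell from 55.1 to 27.6 RPKM from 3 to 10 h (log2 fold change -1.0 ± 0.13, glmTreat adjusted p = 0.0041). At the plasmablast step Sin3b, its paralog, rose from 22.4 to 46.7 RPKM (1.06 ± 0.11, adjusted p = 0.00047) and the deacetylase Hdac1 fell from 33.3 to 12.4 RPKM (-1.43 ± 0.10, adjusted p = 4.2e-06), with 1 of the list up (4.55%) and 4 down (18.2%), against 13.9% and 12.2% of all genes. Compared with naive cells, 8 of the 22 (36.4%) were lower in plasmablasts and 2 (9.09%) were higher, against 23.4% and 26.6% of all genes.

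Genes that act on the stability of the Myc protein were a list of 23, in which ubiquitin ligase subunits and deubiquitinases stand together. Counts of its rises and falls therefore give no direction for the stability of Myc. By 3 h 8 rose (34.8%) and 3 fell (13.0%), against 21.0% and 24.3% of all tested genes, with Fbxo32, a ubiquitin ligase subunit, going from 5.29 to 0.479 RPKM (log2 fold change -3.46 ± 0.16, glmTreat adjusted p = 2.9e-09) and the nucleolar deubiquitinase Usp36 from 18.2 to 50.3 RPKM (1.47 ± 0.11, adjusted p = 1.2e-06). From 10 to 33 h 4 rose (17.4%) and 1 fell (4.35%), against 10.1% and 4.45% of all genes, and those with the largest rises were the mitotic kinases Plk1 (5.07 ± 0.32) and Aurka (3.19 ± 0.24) and the phosphatase inhibitor Cip2a (3.04 ± 0.19), with adjusted p of 1.5e-06, 3e-06 and 1.9e-07. At the plasmablast step 3 rose (13.0%) and 2 fell (8.70%), near the 13.9% and 12.2% of all genes, with falls in Set (-1.11 ± 0.11, adjusted p = 0.00024) and the deubiquitinase Usp7 (-0.82 ± 0.08, adjusted p = 0.0078). Fbxw7, the ubiquitin ligase subunit that recognises phosphorylated Myc, rose from 6.42 to 11.7 RPKM between expanded cells and plasmablasts (0.86 ± 0.10, adjusted p = 0.0097).

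Subunits of the Polycomb complex that contains Mga changed by 3 h, a step at which Mga had a log2 fold change of -0.15 ± 0.11 (F-test adjusted p = 0.24). Of 16 other listed subunits 9 rose (56.2%) and 3 fell (18.8%), against 21.0% and 24.3% of all tested genes, with Pcgf6, the subunit that defines this complex, going from 5.44 to 28.9 RPKM (log2 fold change 2.41 ± 0.12, glmTreat adjusted p = 7.4e-09). From 3 to 10 h 4 rose (25%) and 3 fell (18.8%), against 17.4% and 13.4% of all genes, among the latter the ubiquitin ligase Rnf2, from 75.4 to 30.5 RPKM (-1.30 ± 0.14, adjusted p = 0.00013). Wdr5, Hdac1 and Hdac2 are also on the coactivator or corepressor lists. Of the 16, 3 fell (18.8%) and 0 rose at the plasmablast step, against 12.2% and 13.9% of all genes. Between naive cells and plasmablasts 3 rose (18.8%) and 5 fell (31.2%), against 26.6% and 23.4% of all genes. E2f6, a DNA-binding subunit, was at 13.3 RPKM in plasmablasts and 4.57 RPKM in naive cells (1.55 ± 0.13, adjusted p = 3.8e-06).

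The genes whose log2 RPKM ran most like those of Myc, Mxd3 and Mxd4 over the 12 libraries were found by Pearson's r among 8605 genes with an average of at least 3 on the log2 CPM scale. The 12 points of each correlation come in pairs of one stage, and the values are descriptions. For Myc these were Senp5, Cebpz, Syngr2 and Ncdn, each with r = 0.99. Cebpz, for example, was at 33.7 RPKM in naive cells, 133 RPKM at 3 h and 28.7 RPKM in plasmablasts, a far smaller range than that of Myc.

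For Mxd3 the most alike genes were Tcf19 (r = 0.99) and Cenpl, Ndc80 and Aspm (r = 0.98 each). Ndc80, a kinetochore protein, was at 2.62 RPKM at 10 h and 21.6 RPKM at 33 h. For Mxd4 they were Cmah, Hdac7, Crat and Slc25a23, with r = 0.98 each, and Cmah, an enzyme that modifies sialic acid, went from 29.7 RPKM in naive cells to 2.06 RPKM at 10 h and 42.5 RPKM in plasmablasts. Between the members themselves r ran from -0.93 to 0.80 over 36 pairs and the same 12 libraries. It was at least 0.8 in size for 5 pairs, which were Max and Mlx (-0.93), Mlx and Mga (-0.84), Myc and Mlx (-0.82), Myc and Mxd4 (-0.80), and Mxd1 and Mxd4 (0.80).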

How the data were processed

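RNA was measured in 12 libraries, 2 per stage. Alignment by the authors was to mm10 with Rsubread, and featureCounts assigned read pairs to genes of its inbuilt Entrez annotation, and the submitters' processing notes also name CASAVA 1.8.2. The deposited values are raw counts per gene, with exon lengths as another deposited column, and no filter or normalization. Symbols came from the mm10 annotation for 25275 identifiers. The 1904 unmatched identifiers (1.41% to 2.08% of counts) and mitochondrial, ribosomal RNA, X and Y chromosome and variable immunoglobulin genes were removed, leaving 23700 genes, of which filterByExpr kept 12750. R 4.3.3 with edgeR 4.0.16 was used, with TMM scaling, a one-way layout over all 12 libraries and robust quasi-likelihood fits. Benjamini-Hochberg adjustment at 0.05 was applied to glmTreat against 1.5-fold and to the F-test. The scripts were tested on simulated data. Standard errors of log2 fold changes were derived from the F statistic. RPKM were computed from counts, lengths and TMM-scaled library sizes, and errors beside fold changes are SE. A permutation test of 2 against 2 libraries cannot go below p = 0.33, so no single-gene permutation p is given.

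The members and gene lists were chosen with earlier results of these data known. All members are named. Of the list genes, those not named in the text enter its counts and medians only. From each list, up to 3 DE genes with the largest rise and 3 with the largest fall at a transition could be named. For Myc, Mxd3 and Mxd4 the 4 most alike genes by r were named, with a prior count of 2. Replicate numbers were checked for pairing, and alternatives covered scaling, filters, dispersion methods, thinning, DESeq2 1.42.0 and each library left out.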

Additional observations from a re-analysis of the deposited data

How the results depend on the processing

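Over 54 changes of members and 804 alternative values, 766 kept direction and side of the threshold, 24 lost the call, 3 gained it and 11 turned sign. The number of DE members from 33 h to expanded cells was 2, and 1 with DESeq2's Wald test, with a range of 1 to 2 when single libraries were left out. From expanded cells to plasmablasts it was 5, and 3 with library size alone and with DESeq2's Wald test, with a range of 3 to 5 when single libraries were left out. Over all tested genes 10.6% were DE from 33 h to expanded cells and 26.1% from there to plasmablasts in the main fit. At the plasmablast step 1776 of all tested genes rose and 1553 fell, against 1181 and 2953 with library size alone. Shares of all genes are not given here for DESeq2's Wald test or with single libraries left out. The causes of the moves in the members' counts were not tested. The changes that turned sign were not DE in either form. With library size alone they were Mga from 3 to 10 h (0.24), Mnt at the plasmablast step (-0.30) and Myc from naive cells to plasmablasts (-0.24). With single libraries left out, the ranges that crossed 0 were -0.12 to 1.08 for Mxd3 and -0.20 to 0.01 for Mga from 3 to 10 h, -0.14 to 0.36 for Mxi1 from 10 to 33 h, -0.07 to 0.01 for Mxd3 and -0.05 to 0.17 for Mnt (-0.02 without expanded replicate 1) at the plasmablast step, and -0.15 to 0.23 for Myc from naive cells to plasmablasts. With only the 4 libraries compared, Mxd3 from 33 h to expanded cells was 0.01. DESeq2's Wald test lost the calls of Mxd1 by 3 h (adjusted p = 0.081), Mlx by 10 h (0.13), Myc by 33 h (0.41) and in expanded cells (0.055), and Mxd1 (0.16) and Mlx (0.062) at the plasmablast step, and of Mxi1 between naive cells and plasmablasts (0.068). With no filter on low counts Mlx at the plasmablast step had an adjusted p of 0.074, and with libraries thinned to the smallest Mxd1 there had 0.075. With at least 10 counts required in every library Mxd3 was not tested. Stage means of RPKM with library size alone moved by more than the replicate SD in many cases, as for Max at 3 h (71.4 in place of 80.2).

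Samples of the same number did not deviate together, with correlations of -0.14 to 0.08 over 15 pairs of stages, so the numbers were not taken as pairing. A fit with the replicate block called 5753 genes in place of 5774 by 3 h and the same number of members at every transition, and 24 in place of 25 neighbour pairs differed. With 2 libraries per stage the spread of a single gene rests mostly on that of all genes, and Mycn at 0 to 3 counts and Mxd3 at 8 to 11 counts are limited by depth.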

Other observations

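Among E-box-binding genes outside the network, Bhlhe41, a repressor related to Bhlhe40, had log2 fold changes of -0.83 ± 0.14 by 3 h (n = 2 per stage, glmTreat adjusted p = 0.038) and 1.08 ± 0.14 by 10 h (adjusted p = 0.0023). It was at 13.0 RPKM at 33 h and 114 RPKM in expanded cells (log2 fold change 3.13 ± 0.14, n = 2 per stage, glmTreat adjusted p = 4e-08), and at 58.8 RPKM in plasmablasts against 14.4 RPKM in naive cells (2.03 ± 0.14, adjusted p = 1.4e-07). Bhlhe40 fell from 17.0 RPKM in expanded cells to 5.68 RPKM in plasmablasts (-1.59 ± 0.15, adjusted p = 3.8e-05). Tfeb, which drives lysosome genes, was at 75.3 RPKM in naive cells, 38.2 RPKM at 3 h and 18.6 RPKM in plasmablasts, with log2 fold changes of -0.98 ± 0.10 by 3 h (adjusted p = 0.00078) and -1.38 ± 0.11 at the plasmablast step (adjusted p = 7.4e-06). Usf1, a ubiquitous E-box-binding factor, dipped at 3 h, from 44.0 to 11.4 RPKM (-1.97 ± 0.18, adjusted p = 4.9e-06), and was at 24.1 RPKM at 10 h (1.10 ± 0.18, adjusted p = 0.0067).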
